A study of Mus musculus with 72 samples.

Results

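Microglia and macrophages are commonly recognised by 9 genes, which were followed here in RNA-sequencing libraries of mice lacking Gnb5: Cx3cr1, P2ry12, Tmem119, Csf1r, C1qa, C1qb, C1qc, Aif1 and Trem2. They were listed by symbol, with earlier results of these data known. All 9 of 9 were found once each among the 53715 gene identifiers of the count files. The study sequenced 72 libraries. They came from 18 males aged 18 weeks on a C57BL/6J background, fed freely, with 6 animals of each genotype (Gnb5+/+, Gnb5+/- and Gnb5-/-). The mutant allele lacks exon 3 of Gnb5 from the germline onwards, so every cell type carries it, and Gnb5 encodes a G protein beta subunit that works with RGS proteins to end G protein signalling. Atria (right and left together) and ventricles (right and left together) were taken in all 3 genotypes. Cerebral cortex, hippocampus and cerebellum were taken in Gnb5+/+ and Gnb5-/- mice only, which gives 12 groups of 6 mice. The mouse number in each label shows that the tissues of a genotype come from the same 6 animals.

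Microglia are the resident macrophages of the brain, and the heart holds resident macrophages of its own. Both lineages need signals through the CSF1 receptor, a tyrosine kinase that binds the cytokines CSF1 and IL-34, to survive. The 2 populations share a core of macrophage genes, among them Csf1r, the C1q genes, Aif1 and Trem2, while P2ry12, Tmem119 and high Cx3cr1 are known as features of brain microglia at rest. Cx3cr1 encodes the receptor of the chemokine fractalkine, which neurons make, and P2ry12 encodes a purinergic receptor by which microglial processes sense released nucleotides. Tmem119 encodes a transmembrane protein widely used as a microglial marker, although bone and other mesenchymal cells use it too. C1qa, C1qb and C1qc encode the 3 chains of C1q, the recognition molecule of the classical complement pathway, which tags synapses and dying cells for removal. Aif1 encodes IBA1, the calcium-binding protein by which microglia are stained, and Trem2 encodes a lipid-sensing receptor that signals through the adaptor encoded by Tyrobp. The tissues were sequenced whole, so a lower value may reflect fewer cells or less RNA per cell, which cannot be told apart in these data.

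The 3 C1q genes are shown first because their levels moved together more closely than those of any other pair of the 9. They lie on the minus strand in 18.675 kb of mouse chromosome 4 (GRCm38, GENCODE M21), C1qb at chr4:136880129-136886187, C1qc at chr4:136889804-136893065 and C1qa at chr4:136895917-136898803. The 250 bases before the start of C1qb (chr4:136886201-136886450, minus strand) and of C1qc (chr4:136892915-136893164, minus strand) follow, from RefSeq on GRCm38.p6 and written 5′ to 3′ along the gene. Capitals mark GAGGAA or its reverse complement TTCCTC, a core that PU.1, the ETS transcription factor of macrophages, can bind.
C1qb: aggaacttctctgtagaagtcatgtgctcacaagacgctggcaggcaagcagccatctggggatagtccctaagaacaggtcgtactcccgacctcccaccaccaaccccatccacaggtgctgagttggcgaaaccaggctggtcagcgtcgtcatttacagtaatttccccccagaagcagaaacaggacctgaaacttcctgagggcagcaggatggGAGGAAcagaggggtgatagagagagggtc
C1qc: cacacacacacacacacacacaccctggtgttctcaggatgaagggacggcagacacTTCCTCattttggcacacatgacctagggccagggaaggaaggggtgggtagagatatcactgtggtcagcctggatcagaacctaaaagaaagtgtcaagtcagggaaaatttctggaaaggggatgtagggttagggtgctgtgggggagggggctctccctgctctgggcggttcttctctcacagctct
In C1qb the match lies 25 to 30 bases before the start on the gene's own strand, and in C1qc 188 to 193 bases before it on the opposite strand. These distances are counted from the RefSeq start, which differs from that of GENCODE, so that part of the C1qc stretch lies inside the gene as GENCODE draws it. The table held such a sequence for 6 of the 9 genes, and 4 of the 6 (C1qb, C1qc, Aif1 and Trem2) had at least 1 match, against 23.3% of all 32851 sequences of this length. A match of 6 letters is a description of the sequence and not a binding site.

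The other genes are spread over the genome on GRCm38. Cx3cr1 spans chr9:119901616-120069879 on the minus strand, on the same chromosome as Gnb5 and 44.6 Mb from it. P2ry12 lies at chr3:59216272-59262871 (minus), Tmem119 at chr5:113793729-113800516 (minus), Aif1 at chr17:35170991-35176068 (minus) and Trem2 at chr17:48346401-48354147 (plus). Exons of P2ry12 overlap those of Med12l on the opposite strand, exons of Csf1r overlap those of Hmgxb3, and exons of Cx3cr1 overlap the antisense RNA Gm33858. The library kit keeps the strand, but whether strand was used in counting is not given in the sources used here, so reads of these pairs may not have been told apart.

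Between 29204390 and 48807435 reads were counted on genes per library, with a median of 38864900. Across the 72 libraries, the raw counts of the 9 genes ran from 17 for Trem2 in a ventricle library to 6545 for Csf1r. Gnb5 itself separated the genotypes: it lay between 26.5 and 114 CPM (read counts scaled to library size and composition by the TMM method) in the Gnb5+/+ libraries, between 13.1 and 21.4 in the Gnb5+/- heart libraries, and between 0.840 and 2.93 in Gnb5-/- heart and between 8.997 and 16.3 in Gnb5-/- brain. There were 3 brain libraries that stood apart by a low share of reads outside genes: Gnb5-/- cerebral cortex of mouse 14 (6.86%) and mouse 3 (8.32%), and Gnb5-/- cerebellum of mouse 12 (8.02%), against 11.7% to 16.97% in the other 33. Several log2 fold changes that rest on them are given with and without them, and exact tests are given with them only. Markers of the labelled tissues were in place: the summed level of 5 neuron markers ranged from 2683 to 4648 CPM in brain and from 2.37 to 18.3 CPM in heart, and that of 5 cardiomyocyte markers from 39588 to 67337 CPM in heart and from 62.9 to 581 CPM in brain.

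**Figure D1:**
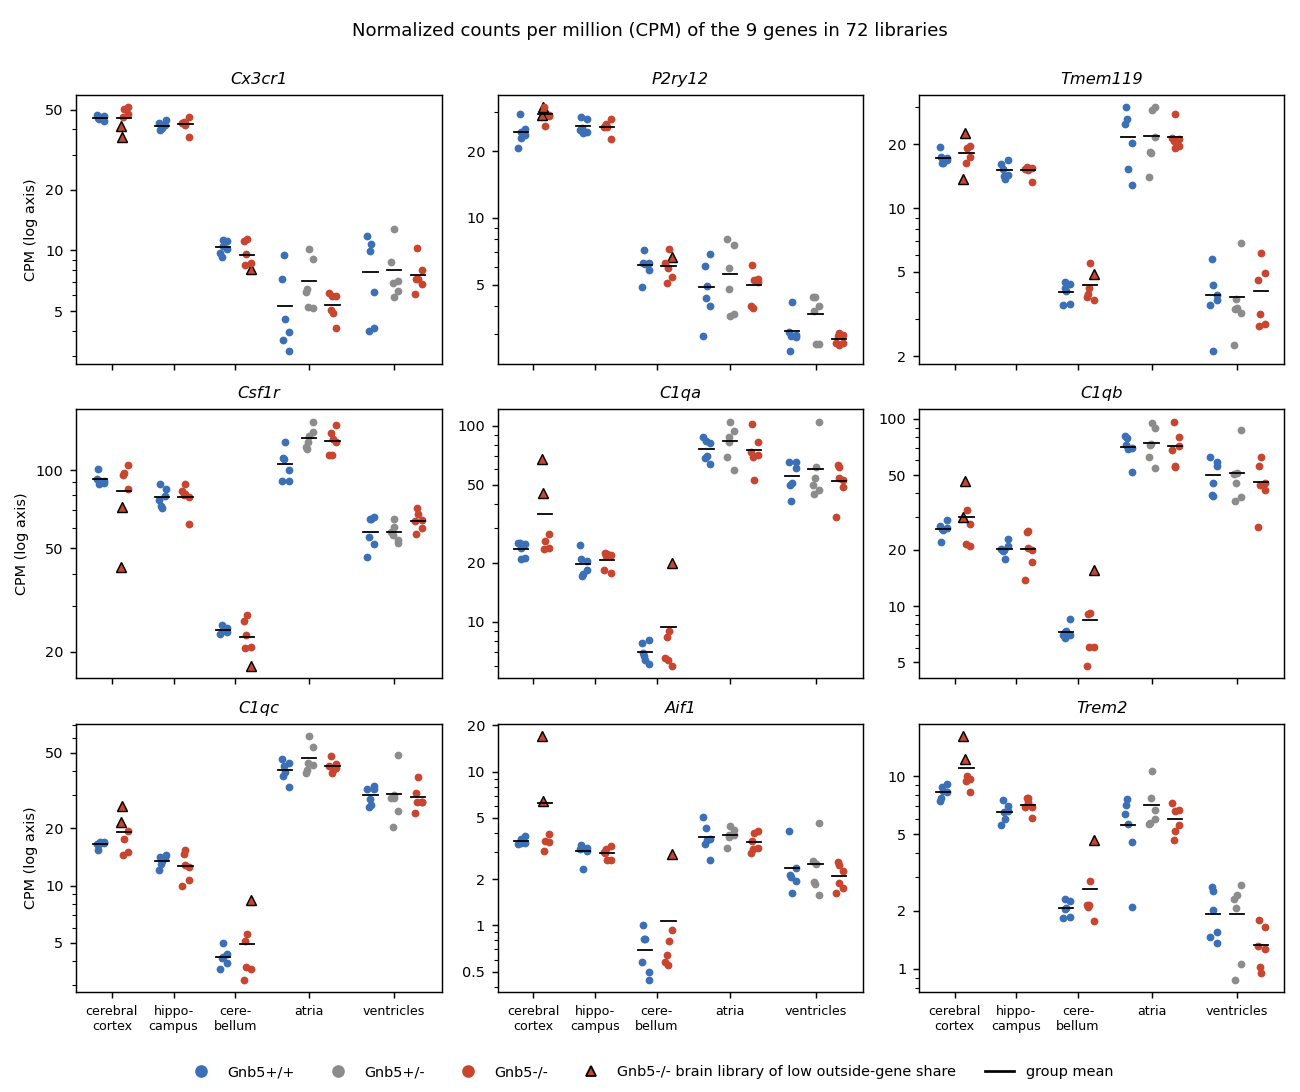
Each point is 1 library and each black bar a group mean of 6 libraries, with CPM on a log axis and the 5 tissues along the horizontal axis. Triangles are the 3 Gnb5-/- brain libraries with few reads outside genes, and all 9 genes were lowest in the cerebellum among the brain regions.

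Per kilobase of exon, C1qa and C1qb led in each of the 12 groups. In Gnb5+/+ atria they reached 72.9 ± 9.19 and 65.0 ± 9.55 CPM per kb (SD, n = 6), in Gnb5+/+ cerebral cortex 22.7 ± 1.902 and 23.8 ± 2.09, and in Gnb5+/+ cerebellum 6.75 ± 0.745 and 6.73 ± 0.566. In each of these 3 groups C1qa and C1qb differed by less than the larger SD. Csf1r was next in Gnb5+/+ cerebral cortex, at 15.96 ± 0.800 CPM per kb, and Trem2 (1.68 ± 0.126) and Aif1 (2.30 ± 0.104) were the lowest of the 9 there. Cx3cr1 stood at 10.2 ± 0.253 CPM per kb in cortex and 1.18 ± 0.552 in atria, so that among the 9 genes it ranked 4th in the former and 8th in the latter.

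Among brain regions, the question was how the 9 genes are distributed in the wild-type animal, before any effect of genotype. In Gnb5+/+ mice all 9 were lower in cerebellum than in cerebral cortex and hippocampus, by 2.68-fold to 4.91-fold. No cerebellar library reached the lowest cortical or hippocampal library for any of them. How many of all genes were separated in this way was not counted. Cerebellum against cortex, 14387 of 18577 genes were called in either direction. Hippocampus and cortex were close to each other, with small differences toward lower hippocampal levels. The fractalkine receptor gene Cx3cr1 had 44.0, 45.9 and 47.3 CPM (lowest, median and highest of 6 mice) in cortex, 39.5, 41.5 and 44.5 in hippocampus and 9.32, 10.4 and 11.3 in cerebellum. Csf1r had 88.4, 90.7 and 101 CPM in cortex, 71.8, 78.2 and 88.8 in hippocampus and 23.3, 24.2 and 25.3 in cerebellum. For both genes the cerebellum was separate from the other regions, whereas cortex and hippocampus overlapped.

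Cerebellum against cortex, the log2 fold change was -2.09 ± 0.05 (SE) for Cx3cr1, 4.26-fold lower, with an adjusted p of 1.47e-19 by edgeR's quasi-likelihood test with Benjamini-Hochberg adjustment over all genes. It was -1.95 ± 0.09 for P2ry12, -2.05 ± 0.07 for Tmem119 and -1.87 ± 0.05 for Csf1r. Of the C1q genes, C1qa fell by 1.69 ± 0.09, C1qb by 1.77 ± 0.07 and C1qc by 1.92 ± 0.07 on the log2 scale. The widest interval belonged to Aif1, at -2.30 ± 0.16, which had only 0.443 to 1.00 CPM in the 6 Gnb5+/+ cerebella, and Trem2 was at -1.95 ± 0.08. All 9 of 9 genes were called lower, where 40.3% of the 18577 genes tested were. The median over the 9 was -1.95, against -0.02 over all genes. Cerebellum against hippocampus gave 9 of 9 called lower as well, with log2 fold changes from -2.10 (Aif1) to -1.42 (C1qb), where 39.5% of all genes were. All 6 mice showed each of these differences, and the 2-sided exact sign-flip test over 6 mice gave its smallest possible p, 0.03125, for each gene.

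Hippocampus against cortex, 7 of 9 genes were called lower in hippocampus, where 24.6% of all genes were. The C1q genes and Trem2 led: C1qb had a log2 fold change of -0.34 ± 0.07, Trem2 of -0.33 ± 0.08, C1qc of -0.28 ± 0.06 and C1qa of -0.24 ± 0.09. Csf1r was at -0.21 ± 0.05, Tmem119 at -0.19 ± 0.07 and Cx3cr1 at -0.12 ± 0.04. P2ry12 had the opposite sign (0.09 ± 0.08, adjusted p = 0.364) and Aif1 was at -0.20 ± 0.14 (adjusted p = 0.274), neither of them called, although Aif1 was lower in hippocampus in 6 of 6 mice and its 2 regions did not overlap. The calls of Cx3cr1, Tmem119 and C1qa were lost when any 1 of several mice was left out. Their log2 fold changes stayed negative under all alternatives. They ran from -0.15 to -0.10 for Cx3cr1, from -0.22 to -0.17 for Tmem119 and from -0.29 to -0.20 for C1qa. That of Cx3cr1 was lost without mouse 15, 18 or 7 (adjusted p 0.0785, 0.0705 and 0.0857) and with no filter on low counts (0.114). That of Tmem119 was lost without mouse 15, 16, 7 or 8 (0.0760, 0.0714, 0.0790 and 0.0551) and with no filter (0.0891). That of C1qa was lost without mouse 15, 16, 18, 7 or 8 (0.114, 0.0542, 0.0820, 0.0896 and 0.0561) and with no filter (0.0625). The calls of C1qb, C1qc, Csf1r and Trem2 were made under every alternative.

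In the heart, 8 of the 9 genes were higher in Gnb5+/+ atria than in Gnb5+/+ ventricles, and Tmem119 differed most. Tmem119 had 12.9, 15.2, 20.3, 25.0, 26.4 and 29.9 CPM in the 6 atria and 2.11, 3.502, 3.68, 3.90, 4.35 and 5.76 CPM in the 6 ventricles, so the 2 chambers did not overlap. Mouse 7 was the highest in both chambers and mouse 8 the second highest in both. The atrial level was 5.46-fold higher (log2 fold change 2.45 ± 0.23, adjusted p = 3.87e-07, edgeR), with ratios from 3.30 to 7.24 in the 6 mice. Csf1r had 91.1, 91.3, 100, 110, 111 and 128 CPM in atria and 46.3, 51.9, 55.1, 64.7, 64.7 and 65.8 CPM in ventricles, again with no overlap. It was 1.78-fold higher in atria (log2 fold change 0.84 ± 0.11, adjusted p = 8.37e-06).

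Trem2 was 2.84-fold higher in atria (log2 1.51 ± 0.28), and its chambers overlapped through the atria of mouse 16 (2.10 CPM). The C1q genes were 1.34- to 1.39-fold higher, at log2 fold changes of 0.42 ± 0.12 for C1qa, 0.47 ± 0.14 for C1qb and 0.42 ± 0.10 for C1qc. P2ry12 was at 0.63 ± 0.20 and Aif1 at 0.65 ± 0.23. In all, 8 of 9 genes were called higher in atria, where 24.5% of the 15147 genes tested were, and the median over the 9 was 0.63 against 0.00 over all genes. Scaled by library total alone, the log2 ratios of the group means were larger for these 8 genes. That of C1qa was 0.88 against 0.44 with TMM, and that of Tmem119 was 2.91 against 2.48. The call of P2ry12 was lost without mouse 16 or 7 (adjusted p 0.0749 and 0.0873). The call of Aif1 was lost without mouse 15, 16, 7 or 8 (0.0674, 0.0549, 0.0561 and 0.0823).

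Cx3cr1 went the other way. Its atrial and ventricular CPM were 4.55 and 10.8 in mouse 15, 3.93 and 6.21 in mouse 16, 7.21 and 11.7 in mouse 17, 3.15 and 4.11 in mouse 18, 3.59 and 3.98 in mouse 7, and 9.45 and 9.89 in mouse 8. The ventricles were higher in 6 of 6 mice, while the spread among mice was as wide as the difference. Without the mouse in the model, the log2 fold change of atria over ventricles was -0.58 ± 0.32 and was not called (adjusted p = 0.155). With the mouse as a replicate block it was -0.57 with an adjusted p of 0.0107 (edgeR), and the exact sign-flip test gave 0.03125. Scaled by library total alone, the log2 ratio of the group means was -0.13 instead of -0.55.

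Markers of red blood cells, fibroblasts, lymphocytes and tissue-resident macrophages separated the chambers, whereas those of monocytes, neutrophils and endothelium overlapped. Summed over each list, 5 red blood cell genes had 2420.2 to 4579.7 CPM in Gnb5+/+ atria and 335 to 1722 in ventricles, and 4 fibroblast genes had 1437 to 2059.5 and 966 to 1170.5 CPM. The 7 lymphocyte genes had 9.60 to 12.7 CPM in atria and 3.57 to 6.67 in ventricles, and the 9 border and tissue-resident macrophage genes 325 to 346 and 203 to 248. The 4 monocyte genes had 7.36 to 17.4 CPM in Gnb5+/+ atria and 5.72 to 19.2 in ventricles. The 4 neutrophil genes had 0.810 to 21.5 and 0.941 to 12.9 CPM, and the 5 endothelial genes 766 to 1000.7 and 990 to 1191.7. Their part in the chamber differences was not tested.

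Brain and heart differed by gene rather than in one direction. Over the 3 brain regions and 2 heart tissues of Gnb5+/+ mice, Cx3cr1 was 4.22-fold higher in brain (log2 fold change 2.08 ± 0.15) and P2ry12 4.10-fold higher (2.04 ± 0.09), whereas C1qa was 4.33-fold lower (-2.11 ± 0.07), C1qb 3.77-fold lower (-1.92 ± 0.07) and C1qc 3.52-fold lower (-1.82 ± 0.05). Trem2 was higher in brain, at 0.56 ± 0.13. In all, 3 of the 9 were called higher in brain, where 50.2% of the 19477 genes tested were, and 5 were called lower, where 40.7% were. The C1q genes did not overlap between the brain and heart libraries of Gnb5+/+ mice. The other 6 did. How many of all genes did not overlap was not counted, and 17711 of 19477 genes were called in this comparison. Cx3cr1 had 10.4 ± 0.784 CPM in cerebellum and 7.79 ± 3.45 in ventricles, a difference smaller than the larger SD.

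Csf1r (-0.47 ± 0.05) and Aif1 (-0.60 ± 0.12) were called lower in brain under TMM, RLE and DESeq2 size factors, but their directions turned with the library total alone, where the log2 ratio of the means was 0.44 for both. With the library total alone that ratio was -1.17 for C1qa, -0.97 for C1qb and -0.83 for C1qc, against -1.97, -1.76 and -1.62 with TMM. For Cx3cr1, P2ry12 and Trem2 it was 3.18, 3.03 and 1.30, against 2.32, 2.24 and 0.58 with TMM. Tmem119 was not called (0.16 ± 0.11, adjusted p = 0.173), except without mouse 7 (0.27, adjusted p = 0.0240), and its log2 ratio of means was -0.07 with TMM and 0.61 with the library total. The median log2 fold change of all genes between brain and heart was 0.22 in this fit and -0.22 in the DESeq2 fit. Relative to that median, the differences in this fit were 1.85 for Cx3cr1, 1.81 for P2ry12, 0.34 for Trem2, -0.07 for Tmem119, -0.69 for Csf1r, -0.83 for Aif1, -2.04 for C1qc, -2.14 for C1qb and -2.34 for C1qa. Relative to the median of the DESeq2 fit, Tmem119 was at 0.43, and the other 8 kept their signs. Before this subtraction Tmem119 was positive in both fits, at 0.16 in edgeR and 0.20 in DESeq2. The medians cover different sets of genes, because the count filter was applied in the edgeR fit and not in the DESeq2 fit.

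Set in order over the 5 Gnb5+/+ tissues, the 9 genes fell into several patterns. C1qa, C1qb and C1qc had the order atria, ventricles, cortex, hippocampus and cerebellum, and each step was larger than the larger SD of the 2 groups. Csf1r ran from atria (105 ± 14.2 CPM) and cortex (92.2 ± 4.62), which differed by less than their spread, through hippocampus (79.1 ± 6.68) and ventricles (58.1 ± 8.15) to cerebellum (24.2 ± 0.697). Cx3cr1 ran from cortex (45.8 ± 1.14 CPM) through hippocampus to cerebellum, ventricles and atria, where cerebellum and ventricles differed by less than the larger SD, as did ventricles and atria. P2ry12 was within its spread in hippocampus (25.8 ± 1.85) and cortex (24.4 ± 2.92), and lowest in ventricles (3.09 ± 0.560). Tmem119 was within its spread in atria (21.6 ± 6.66) and cortex (17.3 ± 1.19), and again in cerebellum (4.02 ± 0.430) and ventricles (3.88 ± 1.19). Trem2 was highest in cortex (8.29 ± 0.625), and its cerebellum (2.06 ± 0.197) and ventricles (1.93 ± 0.564) were within their spread.

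**Figure D2:**
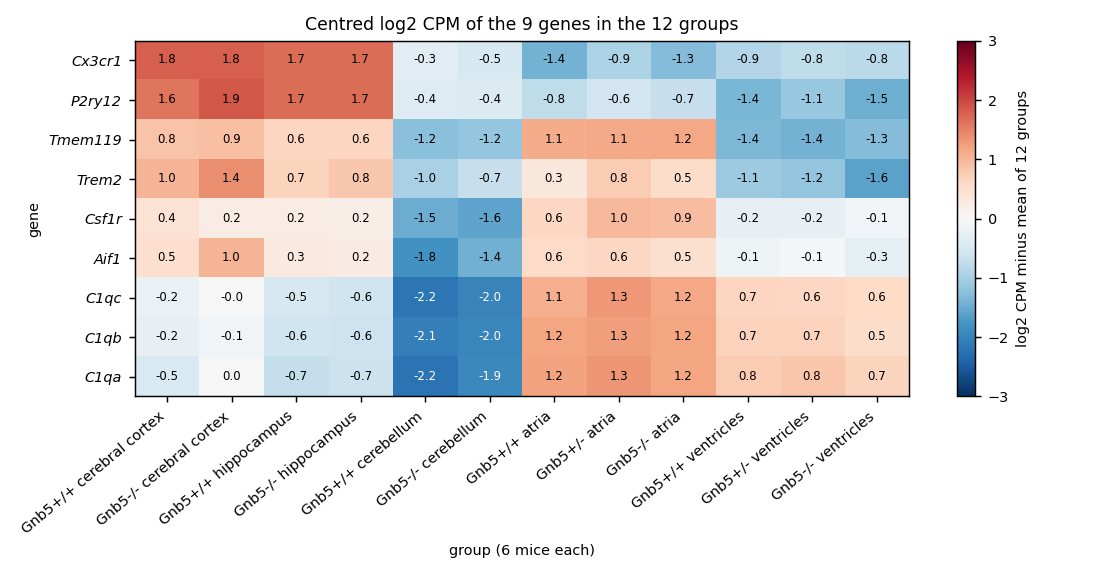
Colours and numbers give each group's mean log2 CPM minus the gene's mean over the 12 groups, with genes in rows and groups in columns. Cx3cr1 and P2ry12 were highest in cortex and hippocampus, and the C1q genes were highest in atria.

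Among the 6 mice of a group, the C1q genes kept their ratios more closely than the other pairs. The SD of the log2 ratio of C1qa to C1qb among the 6 mice of a group had a median of 0.14 over the 12 groups, the lowest of the 36 pairs of the 9 genes, followed by C1qb to C1qc (0.15) and C1qa to C1qc (0.20). The highest was that of P2ry12 to Aif1 (0.47). Per kilobase, C1qa over C1qb was 0.960 ± 0.131 in Gnb5+/+ cortex, 1.00 ± 0.0989 in Gnb5+/+ cerebellum, 1.13 ± 0.109 in Gnb5+/+ atria and 1.17 ± 0.0942 in Gnb5+/+ ventricles. The exception was Gnb5-/- cortex of mouse 14, where the ratio was 2.36, and the SD of the log2 ratio of C1qa to C1qb reached 0.51 in that group. Between tissues the ratios of the C1q genes did shift. Per kilobase, C1qa over C1qc was 2.65 ± 0.274 in Gnb5+/+ cortex and 3.47 ± 0.127 in Gnb5+/+ atria, without overlap. Over the 12 groups, the group means of C1qa to C1qc spanned 0.47 on the log2 scale, and those of C1qa to Cx3cr1 spanned 5.01.

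**Figure D3:**
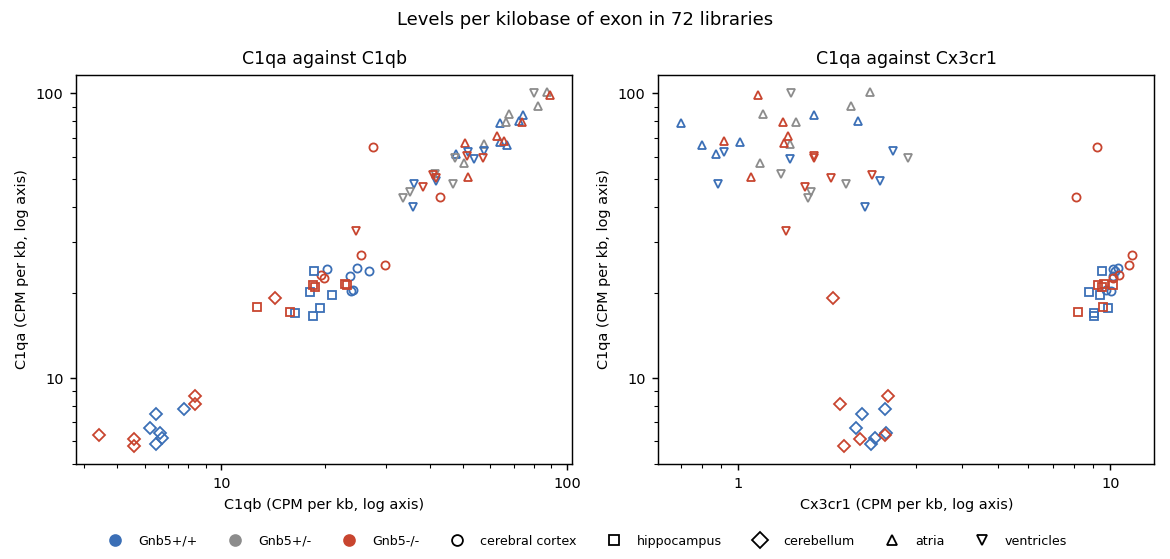
Each symbol is 1 of 72 libraries, with CPM per kb of exon on log axes, colour for genotype and shape for tissue. C1qa and C1qb lie along 1 line in all tissues but for a Gnb5-/- cortex library, whereas C1qa and Cx3cr1 separate brain from heart.

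Other genes of the same lineages were described by list, beside the 9. In cerebellum against cortex, all 10 of 10 microglia-enriched genes were called lower, where 40.3% of all genes were, with a median log2 fold change of -2.03. Tgfbr1, a TGF-beta receptor that keeps microglia in their resting state, was at -1.06 ± 0.07. Of 11 pan-macrophage and leukocyte genes 10 were called lower (median -1.29), among them Ctss, a lysosomal protease (-1.29 ± 0.07), and Mertk, a receptor for engulfment (-1.23 ± 0.12). Of 9 border and tissue-resident macrophage genes 8 were tested and 6 called lower, with a smaller median of -0.61 and Mrc1, the mannose receptor, at -0.66 ± 0.14.

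The ligands varied with the regions too. Cx3cl1, which encodes fractalkine, was 674 CPM in Gnb5+/+ cortex, 458 in hippocampus, 43.2 in cerebellum, 10.4 in atria and 18.6 in ventricles. Cerebellum against cortex, its log2 fold change was -3.91 ± 0.05. Il34 was at -3.79 ± 0.09 in that comparison, and Csf1, the other ligand of the receptor, was at 0.26 ± 0.07, higher in cerebellum. Of the 8 genes of ligands and myeloid transcription factors, 7 were called lower in cerebellum than in cortex and 1, Csf1, higher. Of all genes, 40.3% were called lower, and 14387 of 18577 were called in either direction. Spi1, which encodes PU.1, was at -2.04 ± 0.16.

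Brain against heart, 50.2% of all genes were called higher in brain and 40.7% lower. Of the 10 microglia-enriched genes 7 were called higher in brain and 3 lower, with Siglech, a sialic acid-binding receptor, at 4.62 ± 0.21 and Olfml3, a secreted matrix protein, at -1.63 ± 0.05. All 9 of 9 border and tissue-resident macrophage genes were called lower in brain (median -5.21), with F13a1, a coagulation factor subunit, at -5.01 ± 0.11 and Mrc1 at -3.95 ± 0.08. All 11 of 11 other complement genes were called lower in brain (median -4.23), including C3, the central complement component, at -9.77 ± 0.16. In atria against ventricles, 8 of the 11 complement genes were called higher, where 24.5% of all genes were, and none lower. Sall1, a transcription factor of microglia that other tissues also use, was at 3.61 ± 0.17 on the log2 scale, from 2.04 CPM in ventricles to 25.3 CPM in atria. Of the 12 genes of the Trem2 partner and reactive list, 11 were tested in brain against heart, with 2 called higher and 9 lower. In that list Tyrobp was at -1.12 ± 0.10, and Lpl, a lipase that heart muscle also makes, was at -8.33 ± 0.35.

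The main question of the design was whether the loss of Gnb5 changes transcript levels. None of the 9 genes was called in any of the 9 comparisons of genotypes within a tissue, by edgeR or under any alternative, DESeq2 included. Across these 9 comparisons and the 4 tests of a difference between tissues, the lowest adjusted p over all alternatives was 0.105, for Csf1r in atria. In Gnb5-/- against Gnb5+/+, 0.253% of all genes were called in atria, 0.188% in ventricles, 0.0817% in cerebellum, 0.165% in hippocampus and 0.0557% in cortex, so few genes of any kind passed. In Gnb5+/- against Gnb5+/+ the shares were 0.0124% in atria and 0.0202% in ventricles, and in Gnb5-/- against Gnb5+/- they were 0.0494% and 0.0874%. Of the 118 genes of the other lists, none was called in any of these comparisons, with 7 to 17 of the 99 to 110 tested per comparison at an unadjusted p below 0.05, where 4.78% to 8.79% of all genes were. The 17 of 110 were in Gnb5+/- against Gnb5+/+ atria, where 7.22% of all genes had such a p. The counts of the 9 genes at an unadjusted p below 0.05 were 1 in atria for each mutant genotype, 3 in cortex, 1 in Gnb5-/- against Gnb5+/- ventricles (P2ry12, -0.37) and 0 in the remaining 5 comparisons. The shares of all genes below it were 8.15% and 7.22% in Gnb5-/- and Gnb5+/- atria, 7.39% in cortex and 8.79% in Gnb5-/- against Gnb5+/- ventricles.

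Precision was highest in hippocampus, where the 9 log2 fold changes of Gnb5-/- over Gnb5+/+ ran from -0.10 (C1qc) to 0.11 (Trem2), with SEs from 0.05 to 0.12. Cx3cr1 there had 39.5, 41.5 and 44.5 CPM (lowest, median and highest) in Gnb5+/+ and 36.8, 42.9 and 45.95 in Gnb5-/- mice, and the 2 genotypes overlapped. In atria, 8 of the 9 genes lay between -0.11 and 0.10 in Gnb5-/-, with SEs from 0.11 to 0.24. In ventricles the range was from -0.54 ± 0.27 for Trem2 to 0.13 ± 0.09 for Csf1r. Trem2 had 1.36, 1.79 and 2.65 CPM in Gnb5+/+ ventricles and 0.951, 1.29 and 1.79 in Gnb5-/- ventricles, with an adjusted p of 1.00 and overlapping groups.

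Csf1r in atria came closest to a call. The 6 Gnb5+/+ atria had 91.1, 91.3, 100, 110, 111 and 128 CPM, the 6 Gnb5+/- atria 120, 123, 129, 136, 140 and 154, and the 6 Gnb5-/- atria 114, 115, 128, 132, 139 and 149. All mutant values lay above 5 of the 6 wild-type ones, and the Gnb5+/+ library of mouse 15 (128 CPM) lay within the mutant range. The log2 fold change was 0.30 ± 0.09 in Gnb5-/- (adjusted p = 0.297, edgeR) and 0.35 ± 0.09 in Gnb5+/- (adjusted p = 0.610), against the same 6 Gnb5+/+ libraries. The 2-sided exact permutation test gave 0.0130 and 0.00649, unadjusted and among 9 genes tested in each comparison. Without mouse 15 the adjusted p was 0.105 and 0.127. Against Gnb5+/+ ventricles, Csf1r was at 0.13 ± 0.09 in Gnb5-/- and -0.01 ± 0.09 in Gnb5+/-. Gnb5-/- atria against Gnb5+/- atria gave log2 fold changes from -0.40 (Cx3cr1) to -0.02 (Tmem119), and the same comparison in ventricles gave values from -0.53 (Trem2) to 0.14 (Csf1r).

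**Figure D4:**
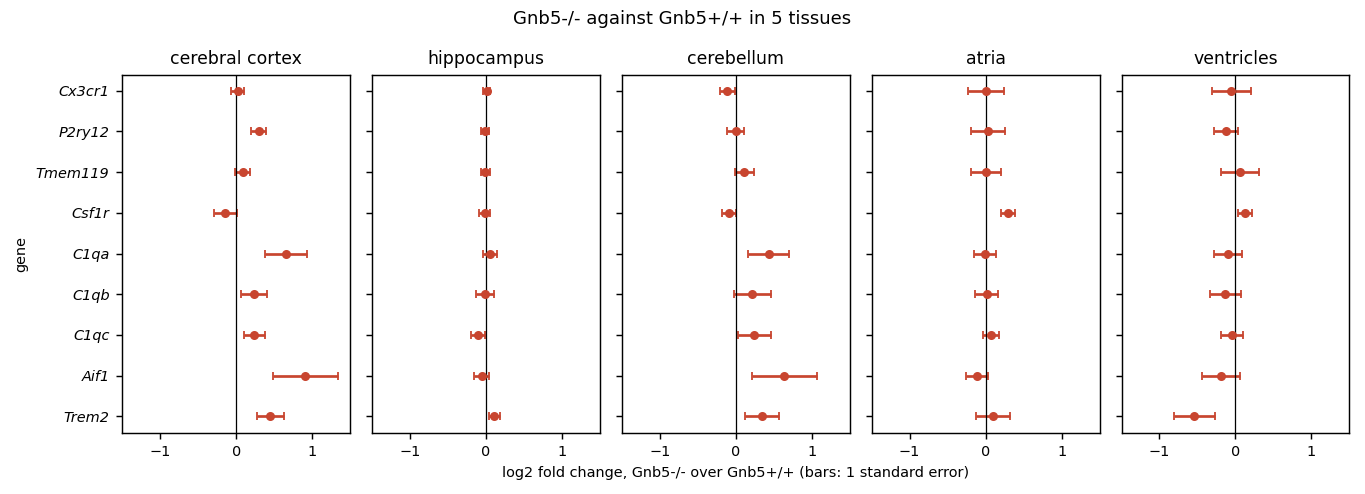
Points give the log2 fold change of Gnb5-/- over Gnb5+/+ for each gene, with 1 panel per tissue and bars of 1 SE. None of the 45 values passed the adjusted threshold, and hippocampus had the shortest bars. The values furthest to the right, of Aif1, C1qa and Trem2 in cortex and cerebellum, were smaller without the 3 libraries with few reads outside genes. Of these values, that of Trem2 in cortex was then the highest.

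In cortex 2 Gnb5-/- libraries stood above the rest for C1qa, Aif1 and Trem2. C1qa had a median of 24.3 and a highest value of 25.3 CPM in Gnb5+/+ cortex, and 23.5, 23.9, 26.0, 28.1, 45.2 and 67.4 CPM in the 6 Gnb5-/- cortices. The 2 highest were those of mouse 3 and mouse 14. Aif1 had 3.37 to 3.79 CPM in Gnb5+/+ cortex and 3.04, 3.47, 3.52, 3.94, 6.42 and 17.1 in Gnb5-/- cortex, with the same 2 mice at the top. Trem2 had 7.47 to 9.13 CPM in Gnb5+/+ and 8.31, 9.46, 9.66, 10.04, 12.2 and 16.2 in Gnb5-/- cortex, again with these mice highest. Csf1r and Cx3cr1 went the other way in the same libraries: Csf1r was 42.2 CPM in mouse 14 and 72.2 in mouse 3, against 84.8 to 104 in the other 4, and Cx3cr1 was 41.6 and 36.6 against 46.0 to 51.5. P2ry12 did neither, with 29.2 and 31.5 CPM in these 2 and 25.9 to 31.5 in the other 4. The 2 libraries did not agree for every gene. C1qb was 29.8 CPM in mouse 14 and 46.8 in mouse 3, against 21.1 to 32.4 in the other 4. Tmem119 was lowest in mouse 14 (13.7 CPM) and highest in mouse 3 (22.6), against 16.3 to 19.7. C1qc was 21.7 and 26.3 CPM in mouse 14 and mouse 3, against 14.5 to 19.4.

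With all 12 cortices, the log2 fold changes were 0.91 ± 0.43 for Aif1, 0.66 ± 0.28 for C1qa, 0.45 ± 0.17 for Trem2, 0.29 ± 0.10 for P2ry12, 0.23 ± 0.17 for C1qb, 0.24 ± 0.14 for C1qc and -0.14 ± 0.15 for Csf1r, and the lowest adjusted p was 0.474. Without the 2 libraries, a choice made after the data were seen, they were -0.02 for Aif1, 0.10 for C1qa, 0.17 for Trem2, 0.24 for P2ry12, -0.02 for C1qb, 0.00 for C1qc and 0.05 for Csf1r. Aif1, C1qb and Csf1r thus changed sign, and no value was called either way. For P2ry12 and Trem2 the comparison of all 12 cortices gave an unadjusted 2-sided exact permutation p of 0.0108 each, among 9 genes tested. In the cerebellum of the same mice C1qa was 6.57 CPM in mouse 14 and 8.41 in mouse 3, the former within and the latter above the 6.13 to 8.08 of the Gnb5+/+ cerebella.

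The cerebellum of mouse 12 was likewise high for C1qa, Aif1 and Trem2, and C1qb and C1qc were high there as well. C1qa was 19.95 CPM there against 6.00 to 9.02 in the other 5 Gnb5-/- cerebella, Aif1 2.93 against 0.550 to 0.932, Trem2 4.65 against 1.77 to 2.86, C1qb 15.6 against 4.81 to 9.13 and C1qc 8.46 against 3.20 to 5.58. Csf1r was the lowest of the 6, at 17.7 CPM against 20.6 to 27.7. With this library the log2 fold changes in cerebellum were 0.64 ± 0.43 for Aif1, 0.43 ± 0.27 for C1qa and 0.35 ± 0.22 for Trem2, and without it 0.01, 0.05 and 0.09. The lowest adjusted p was 0.583 with it, and no gene was called without it. In the cortex of the same mouse C1qa was 28.1 CPM and Aif1 3.94.

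Other cell markers moved in these libraries. Red blood cell genes summed to 176 CPM in cortex of mouse 14, 70.3 in cortex of mouse 3 and 134 in cerebellum of mouse 12. In Gnb5+/+ cortex and cerebellum the same sum ranged from 38.6 to 51.2 and from 28.3 to 57.8. Choroid plexus genes summed to 614 CPM in cerebellum of mouse 12 against 2.37 to 5.29 in Gnb5+/+ cerebellum, and to 257 and 21.7 in cortex of mouse 3 and mouse 14 against 8.65 to 217 in Gnb5+/+ cortex and up to 531 in Gnb5-/- cortex. Oligodendrocyte genes summed to 3263 CPM in cerebellum of mouse 12 against 1602 to 2279.8 in Gnb5+/+, and to 2060.3 and 2039 in cortex of mouse 14 and mouse 3 against 1583 to 1966 in Gnb5+/+. Endothelial genes summed to 161 CPM in cortex of mouse 14 and 93.6 in that of mouse 3 against 84.3 to 116.75 in Gnb5+/+, and to 108 in cerebellum of mouse 12 against 67.5 to 84.98. Border macrophage genes (14.7, 11.99 and 7.13 CPM in the 3 libraries) and monocyte genes (1.02, 1.55 and 1.57 CPM) stayed within the Gnb5+/+ ranges of 6.83 to 15.6 and 0.286 to 2.11 CPM. Other lists are given by group, not by library. The Trem2 partner and reactive list summed to at most 1821 CPM in Gnb5-/- cortex and 1069 in Gnb5-/- cerebellum, against 968 and 520 in Gnb5+/+. The lowest cardiomyocyte sums were 62.9 and 70.0 CPM, against 260 and 215. In cortex the lowest neuron and astrocyte sums were 3962 and 680 CPM, against 4489 and 810. In cerebellum the lowest neuron sum was 2789 CPM, against 2683. The part of reads outside genes and of other cells in the levels of the 9 genes was not tested.

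**Figure D5:**
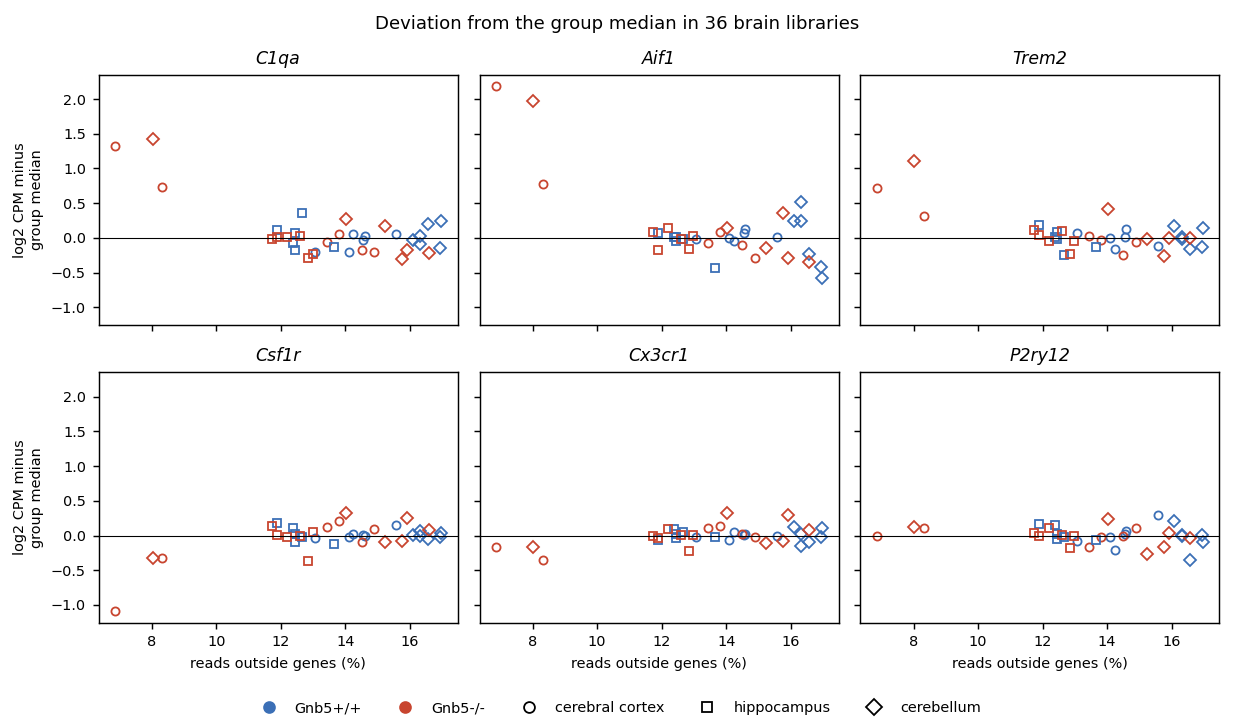
Each symbol is 1 of 36 brain libraries, with the share of reads outside genes in percent along the horizontal axis and the gene's log2 CPM minus its group median on the vertical axis. The 3 libraries below 10% were high for C1qa, Aif1 and Trem2, low for Csf1r and Cx3cr1, and near their group median for P2ry12.

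In the heart, the Gnb5+/- ventricles of mouse 4 had the lowest share of reads outside genes (2.85%). C1qa was 104.5 CPM there against 44.7 to 61.9 in the other 5 Gnb5+/- ventricles, and red blood cell genes summed to 3929 CPM, the highest of the 18 ventricle libraries. Gnb5+/- against Gnb5+/+ ventricles, C1qa was at 0.11 ± 0.18 with this library and -0.10 without it, not called either way.

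Whether the Gnb5-/- effect differed between tissues was tested as an interaction contrast. None of the 9 genes was called in any of the 4 contrasts by edgeR, DESeq2 or the fit with the mouse as a block, where 0.0206% of all genes were for cerebellum against cortex, 0.0% for hippocampus against cortex, 0.0206% for cerebellum against hippocampus and 0.0121% for ventricles against atria. The largest difference was that of Aif1 between hippocampus and cortex, at -0.96 ± 0.51 (adjusted p = 0.607), and without the 3 brain libraries with few reads outside genes Aif1 was at -0.02. P2ry12 had -0.30 ± 0.13 in that contrast (unadjusted p = 0.0208) and -0.29 ± 0.13 for cerebellum against cortex (unadjusted p = 0.0271), where 6.14% and 3.17% of all genes had an unadjusted p below 0.05, and the 2 contrasts share the cortex libraries. Over the alternatives, which include leaving out the 3 libraries, P2ry12 ran from -0.36 to -0.23 in the former and from -0.38 to -0.20 in the latter.

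The genes whose pattern over the 12 group means was most like the mean pattern of the 9 were Foxp1, a transcription factor (root mean square difference 0.18 on the log2 scale), Cd300c2, a myeloid surface receptor (0.18), Arhgap22, a GTPase-activating protein (0.19), C230062I16Rik (0.20) and Smpdl3b, a phosphodiesterase (0.21). They were taken from 15029 genes with a mean of at least 1 CPM, for which the median difference was 1.03. Among the 9 themselves, Aif1 (0.18) and Csf1r (0.27) lay nearest to the mean pattern and P2ry12 (1.11) and Cx3cr1 (1.21) furthest. The nearest gene to C1qb among all 15029 was C1qc and the reverse (0.07), and the nearest to C1qa was C1qb (0.11). For the other 6 the nearest of the 9 ranked between 12th and 42nd, with P2ry12 the nearest of the 9 to Cx3cr1 (0.39).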

How the data were processed

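RNA was extracted from whole tissues of 18 mice, and libraries were made from total RNA with a stranded kit. The authors trimmed reads with cutadapt 1.8, aligned them to GRCm38 with STAR 2.5.3a and counted reads per gene with HTSeq 0.9.1 on Ensembl release 92. The deposited values are whole-number counts per gene and library, not normalised, and 5 rows without a gene were left out of library sizes and tests. Reads outside genes, 1 of these rows, were 2.85% to 6.74% in heart and 6.86% to 16.97% in brain libraries. Of 53715 identifiers, 53620 were matched to GENCODE M21, and 95 were not.

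Counts were filtered (filterByExpr, count minimum 10), TMM-normalised and tested with edgeR's quasi-likelihood test (edgeR 4.0.16, R 4.3.3), with Benjamini-Hochberg adjustment over all genes and a threshold of 0.05. Genotypes were compared within each tissue, all genotypes of a heart tissue in 1 fit, brain regions and heart tissues among Gnb5+/+ mice, and Gnb5-/- effects between tissues as interaction contrasts. Brain against heart compared the means of 3 regions and 2 tissues. Levels are CPM with TMM factors over all 72 libraries, and log2 CPM used a prior count of 2. A level per kb divides CPM by the gene's merged exon length. Exact tests were 2-sided. No call was made without replicates, and the 6 mice of a group set the precision.

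Tissues of the same number come from the same mouse. Within Gnb5+/+ the deviations of same-numbered libraries from their group means correlated at 0.39 to 0.68 between brain regions and 0.11 to 0.40 between heart tissues. Alternatives were DESeq2 1.42.0, RLE factors, no filter, the replicate block, fits of 2 genotypes, the library total alone for levels, and each mouse left out. Leaving out libraries with few reads outside genes, and that share as a covariate, were chosen after seeing the data. The tests were checked on simulated counts with known changes. Those libraries were drawn independently, so the check did not cover tissues sharing a mouse or outlying libraries. The 9 genes and all lists were chosen with earlier results of these data known. Named were the 9 genes, list genes called between genotypes, the 2 genes of highest level per list, and the 5 genes of most alike pattern. Il34, Spi1, Siglech, Olfml3, Sall1 and Tyrobp fall outside this rule and were chosen after their values were seen. Some genes that the rule would name are not reported here.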

Additional observations from a re-analysis of the deposited data

Results flagged for a closer look

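In each group of 6 mice, a library was singled out where its gap to the next one exceeded 0.625 of the group's range of log2 CPM (Dixon's criterion). Of 108 gene and group combinations 10 were singled out, where chance gives about 1 in 20. Of these, 2 belong to the Gnb5-/- cerebellum of mouse 12: C1qa at 19.95 CPM (others 6.00 to 9.02) and Aif1 at 2.93 CPM (others 0.550 to 0.932). Another 2 belong to the Gnb5-/- hippocampus of mouse 1, both low: Csf1r at 62.0 CPM (others 78.8 to 88.2) and Tmem119 at 13.2 CPM (others 15.2 to 15.6). Another 2 belong to the Gnb5+/+ cerebral cortex of mouse 7: Csf1r was high at 101 CPM (others 88.4 to 92.4), and C1qc low at 15.5 CPM (others 16.5 to 16.9). The others are single values. Tmem119 was 27.8 CPM in Gnb5-/- atria of mouse 10 (others 19.2 to 21.5). C1qb was 8.51 CPM in Gnb5+/+ cerebellum of mouse 18 (others 6.75 to 7.34) and 52.0 CPM in Gnb5+/+ atria of mouse 16 (others 69.4 to 81.3). Aif1 was 2.34 CPM in Gnb5+/+ hippocampus of mouse 15 (others 3.06 to 3.35). The cortex values of mouse 14 and mouse 3 were not among the 10. No difference between tissues in the Gnb5-/- effect on these genes passed its test.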

How the results depend on the processing

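None of the 9 genes was called between genotypes, or in a difference between tissues, under any alternative. Between Gnb5+/+ brain regions, with no filter on low counts 4 in place of 7 were called in hippocampus against cortex, and 4 to 7 with each mouse left out (4 without mouse 15 or mouse 7). All 9 stayed called in cerebellum against both regions, 6 to 8 in atria against ventricles and 8 to 9 in brain against heart. Levels moved by more than 1 SD in 76 of 108 gene and group combinations with the library total alone, whose ratio to TMM levels was 0.562 to 0.766 in ventricles, 0.775 to 1.00 in atria and 1.25 to 1.505 in brain, and in 1 with RLE.

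Counts of all genes called moved more. In Gnb5-/- against Gnb5+/+ they were 41 in atria (DESeq2 113, fit of 2 genotypes 20, covariate 24), 28 in ventricles (DESeq2 62), 14 in cerebellum (DESeq2 63, replicate block 5, covariate 39, without the library of mouse 12 62), 29 in hippocampus (DESeq2 110, block 19) and 10 in cortex (DESeq2 35, block 6, without the 2 libraries 26). They were 2 in Gnb5+/- atria (DESeq2 8) and 3 in Gnb5+/- ventricles (block 0, fit of 2 genotypes 1) against Gnb5+/+, and 8 in Gnb5-/- against Gnb5+/- atria (DESeq2 25, fit of 2 genotypes 13) and 13 in ventricles (DESeq2 69). Differences between tissues had 4 for cerebellum against cortex (block 2, DESeq2 11, without the 3 libraries 14), 0 for hippocampus against cortex (DESeq2 1; 1191 genes at an unadjusted p below 0.05 in edgeR), 4 for cerebellum against hippocampus (DESeq2 11, without the 3 libraries 11) and 2 for ventricles against atria (block 0, no filter 0, DESeq2 9). With each mouse left out the counts ran from 24 to 62 in atria (24 without mouse 1, 62 without mouse 15), 17 to 42 in ventricles, 9 to 62 in cerebellum (62 without mouse 12), 21 to 37 in hippocampus and 8 to 22 in cortex (22 without mouse 14) for Gnb5-/- against Gnb5+/+, 2 to 6 and 1 to 5 for Gnb5+/- against Gnb5+/+ in atria and ventricles, 7 to 11 and 7 to 23 for Gnb5-/- against Gnb5+/-, and 2 to 6, 0 to 0, 3 to 5 and 0 to 1 for the differences between tissues. The cause of these moves was not tested. The numbers pair the same mouse between tissues, where the block changed the call of Cx3cr1 in atria against ventricles (-0.57, adjusted p = 0.0107) and no other of the 9; between genotypes they join different animals (correlations of -0.27 to 0.14). The lowest values rest on few reads, down to 28 for Aif1 in cerebellum and 17 for Trem2 in ventricles.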
